A study of Homo sapiens with 12 samples.

Results

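The 9 genes STAT2, IRF1, IRF7, IRF9, IFIH1, IFIT2, IFIT3, OAS1 and ISG15 encode parts of the interferon system: 4 transcription factors, a sensor of viral RNA and 4 antiviral effectors. They were chosen by symbol, with earlier results of these data known, from the 60707 genes of a raw count table. Each of the 9 was present and passed the filter on low counts, as did 17859 genes in all. The table covers 12 libraries of Raji, a human Burkitt lymphoma B-cell line carrying an auxin-inducible degron for SMARCA4, the ATPase that drives SWI/SNF chromatin remodelling. The 4 groups of 3 libraries were Raji cells of a high or a low GFP gate (GFP-high, GFP-low), each given the solvent DMSO or FX1, an inhibitor of the transcriptional repressor BCL6, and collected at 24 h. The labels give the genotype Smarca4+/+ for all groups and leave unsaid what GFP reports about SMARCA4 protein, whether auxin was given, whether the line is 1 clone, or the dose of FX1.

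Type I interferons bind a receptor made of IFNAR1 and IFNAR2, whose kinases JAK1 and TYK2 phosphorylate STAT proteins, STAT2 among them. STAT2 and IRF9 are subunits of the factor ISGF3, which binds the interferon-stimulated response element (ISRE) in the promoters of target genes. Interferon gamma acts mainly at the gamma-activated sequence (GAS). Many parts of the system, STAT2, IRF9, IRF1, IRF7 and IFIH1 among them, are themselves targets of interferon, and IRF family factors can also bind ISRE-type sites without interferon.

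Promoter sequence shows which of the genes carry these response elements near a start site. RefSeq promoters (GRCh38.p14) are described for 6 of the 9 genes, and for IFIT3 at 2 start sites. The 250 bases before each start were searched on both strands for the ISRE core (GAAA, then 2 bases of any kind, then GAAA), held by 3.02% of 35116 promoters of this length, and the GAS core TTCNNNGAA, held by 6.57%. The ISRE core was present in ISG15, IFIH1 and both IFIT3 promoters, the GAS core in IRF1 and IRF9, and neither in STAT2. A match is a description of the letters and does not show that a factor binds. The stretches that hold the matches are printed 5′ to 3′ on the strand of the gene, with the ISRE cores, or the GAS core where there is no ISRE core, in capitals. Capitals that begin with TTTC are ISRE cores on the other strand, and overlapping matches run together.
ISG15, chr1:1013369-1013414, plus strand, bases -128 to -83: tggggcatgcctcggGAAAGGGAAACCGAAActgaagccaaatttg
IFIH1, chr2:162318685-162318858, minus strand, bases -174 to -1: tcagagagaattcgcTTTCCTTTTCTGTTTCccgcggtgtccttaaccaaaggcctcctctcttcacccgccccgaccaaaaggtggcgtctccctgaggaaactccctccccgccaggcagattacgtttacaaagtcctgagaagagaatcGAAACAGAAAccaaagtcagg
IFIT3 start 1, chr10:89327826-89327899, plus strand, bases -171 to -98: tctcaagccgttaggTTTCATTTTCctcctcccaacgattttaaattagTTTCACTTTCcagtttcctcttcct
IFIT3 start 2, chr10:89332420-89332502, plus strand, bases -109 to -27: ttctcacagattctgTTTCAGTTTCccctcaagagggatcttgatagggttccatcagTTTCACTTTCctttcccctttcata
IRF1, chr5:132490874-132490912, minus strand, bases -139 to -101: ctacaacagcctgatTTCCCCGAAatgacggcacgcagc
IRF9, chr14:24161187-24161225, plus strand, bases -78 to -40: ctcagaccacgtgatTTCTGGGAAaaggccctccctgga

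**Figure D1:**
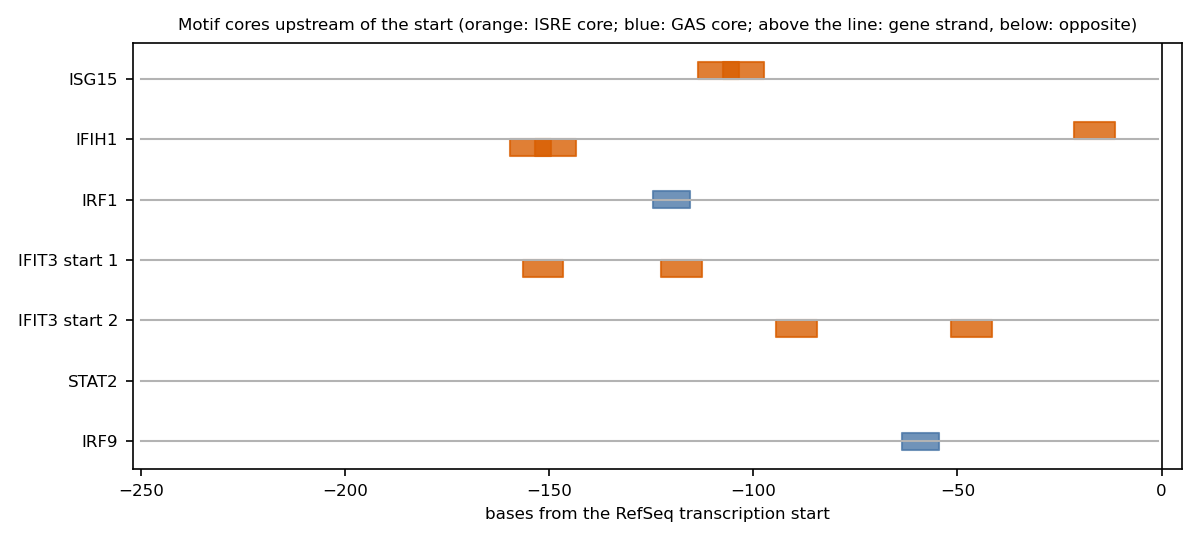
Positions of the ISRE and GAS cores in the 250 bases before each RefSeq start site, in bases from the start, with 1 line per promoter, orange for ISRE, blue for GAS, and matches on the gene's strand above the line. ISG15 holds 2 overlapping ISRE cores, IFIH1 holds 3 and each IFIT3 promoter holds 2, while STAT2 holds neither core.

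Total gene counts lay between 20454028 and 42556661 per library. The common biological coefficient of variation was 1.67%, so small changes passed the test. Whether the 3 libraries per group are separate cultures is not labelled, so the spread behind each p-value may be technical. The B-cell label held: each of 6 B-cell markers was above 1 CPM (a count over the library size, adjusted by TMM) in every group. Their summed level was 2650 to 2670 CPM in GFP-high DMSO, 2210 to 2230 in GFP-high FX1, 2360 to 2370 in GFP-low DMSO and, lowest, 1790 in GFP-low FX1. The markers went both ways: between GFP-high DMSO and GFP-low FX1 the mean of MS4A1 went from 883 to 396 CPM and that of CD22 from 866 to 353, while CD79B went from 204 to 350. The 8 T and NK markers summed to between 2.52 and 7.51 CPM, with CD8A at 0 in all libraries. The 5 epithelial and stromal markers summed to between 8.77 and 17.8 CPM, with KRT18 at 0. The 8 markers of myeloid and plasmacytoid dendritic cells summed to 2.35 to 3.92 CPM in the other 3 groups and to 6.66 to 6.9 CPM in GFP-low FX1. Most of that sum was ITGAM, at a mean of 5.05 CPM in GFP-low FX1 and 0.868 to 1.91 in the others. Of the plasmacytoid markers IL3RA was at 0 in all libraries, CLEC4C was at most at a mean of 0.0186 CPM, and LILRA4 stood at 0.617 in GFP-low FX1 and 0.656 in GFP-high FX1. The part of these markers in the results was not tested. In bulk RNA, fewer cells with a transcript and less transcript per cell cannot be told apart.

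FX1 was compared with DMSO within each gate to ask what the BCL6 inhibitor changed. RNA of the effectors IFIT2, IFIT3 and OAS1 rose 2.69-fold to 2.74-fold in GFP-high cells and 2.15-fold to 2.5-fold in GFP-low cells, and the sensor gene IFIH1 rose by 1.47-fold and 1.44-fold. The transcription factor genes changed less or not beyond the threshold. Of the 9 genes, 6 rose and 0 fell with FX1 in GFP-high cells, against 33.8% of all tested genes called higher and 34.6% called lower there, 68.4% in either direction (edgeR quasi-likelihood test, Benjamini-Hochberg adjusted p of at most 0.05). In GFP-low cells 8 rose and 0 fell, against 33.7% and 34.3% of all tested genes, 68% together. The median log2 change of the 9 genes was 0.33 and 0.52, against -0.01 over all genes in both gates. The 9 genes were chosen with earlier results of these data known, so these comparisons describe them and do not test for an excess. The 6 that rose in both gates were STAT2, IFIH1, IFIT2, IFIT3, OAS1 and ISG15. The share of all tested genes that rose in both gates is not given here, so this count has no baseline. In a fit with the trend of counts on GC content and transcript length taken out (the GC/length trend), 5 of these 6 rose in both gates, and ISG15 passed in GFP-low cells alone. With that setting 5 genes rose and 2 fell in GFP-high cells, and 6 rose and 1 fell in GFP-low cells. Over all 17557 genes of that fit, 6514 were called higher and 5565 lower in GFP-high cells, and 6335 and 5239 in GFP-low cells. The median log2 change of the 9 genes in that fit was 0.21 and 0.38, against 0.04 and 0.05 over all genes.

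**Figure D2:**
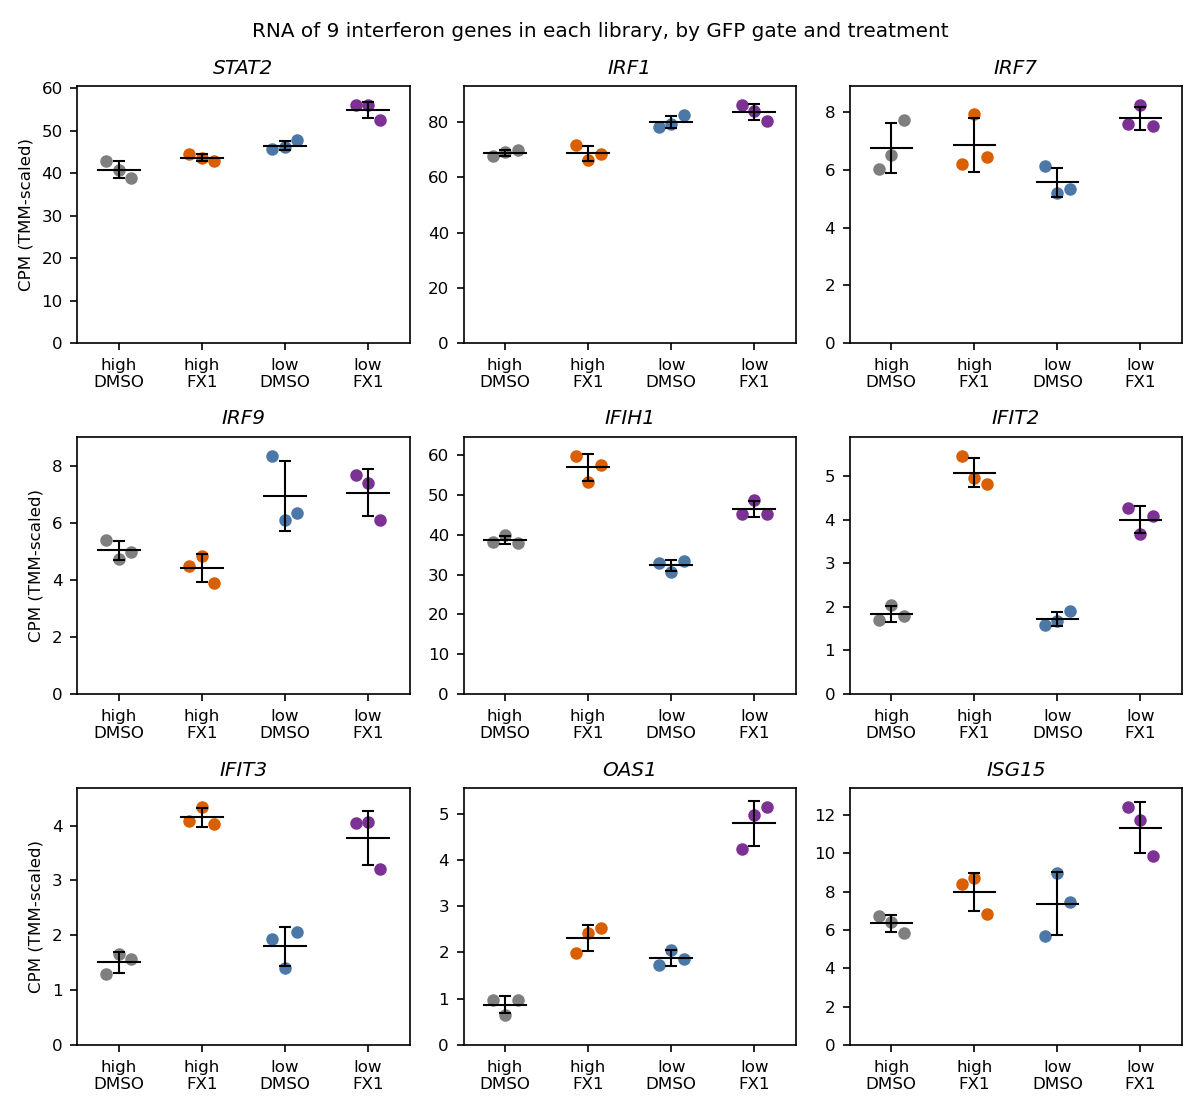
TMM-scaled CPM of each of the 9 genes in the 12 libraries, as points, with the group mean as a horizontal line and its SD (n = 3) as an error bar, for the 4 combinations of GFP gate and treatment. In IFIT2, IFIT3 and IFIH1 every FX1 library lies above every DMSO library.

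STAT2 (ENSG00000170581.14, hg38 chromosome 12, 56341597 to 56360167, minus strand) encodes the STAT that links the type I receptor to ISGF3. Its level was 42.84, 40.74 and 38.96 CPM in GFP-high DMSO, 44.47, 43.65 and 42.81 in GFP-high FX1, 45.66, 46.21 and 47.73 in GFP-low DMSO, and 56.07, 56.04 and 52.66 in GFP-low FX1. The GFP-low FX1 libraries were above all others, while the ranges of the GFP-high groups overlapped. With FX1, STAT2 changed by a log2 value of 0.10 ± 0.042 (SE) in GFP-high cells (edgeR adjusted p = 0.034) and rose by 0.25 ± 0.040 in GFP-low cells (edgeR adjusted p = 6.7e-09). The first of these calls was lost without GFP-high DMSO replicate 2 (0.10), GFP-high DMSO replicate 3 (0.07) or GFP-high FX1 replicate 1 (0.09).

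IRF9 (ENSG00000213928.9, chromosome 14, 24161265 to 24166565, plus strand) encodes the DNA-binding subunit of ISGF3. Its level was 5.4, 4.725 and 4.971 CPM in GFP-high DMSO, 4.485, 4.85 and 3.881 in GFP-high FX1, 8.335, 6.09 and 6.345 in GFP-low DMSO, and 7.658, 7.401 and 6.106 in GFP-low FX1. Every GFP-low library was above every GFP-high one, and within each gate the FX1 and DMSO ranges overlapped. The FX1 change did not pass the test, at -0.19 ± 0.12 in GFP-high cells (edgeR adjusted p = 0.17) and 0.05 ± 0.11 in GFP-low cells (edgeR adjusted p = 0.7). IRF9 shares 42.2% of its exon bases with ENSG00000259529 on the same strand, so its counts are uncertain.

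IRF1 (ENSG00000125347.15, chromosome 5, 132440440 to 132508719, minus strand) encodes an activator induced by interferon gamma, and its promoter held the GAS core printed above. Its level was 67.57, 69.25 and 69.84 CPM in GFP-high DMSO, 71.6, 66.26 and 68.28 in GFP-high FX1, 78.25, 79.14 and 82.56 in GFP-low DMSO, and 86.17, 84.13 and 80.57 in GFP-low FX1. The gates were separate, whereas FX1 and DMSO libraries of 1 gate overlapped. The FX1 change was -0.00 ± 0.033 in GFP-high cells (edgeR adjusted p = 0.96) and 0.07 ± 0.032 in GFP-low cells (edgeR adjusted p = 0.036). With the GC/length trend taken out, both changes of IRF1 were negative, at -0.09 (edgeR adjusted p = 0.0088) and -0.10 (edgeR adjusted p = 0.0025). Over the 21 alternatives run for each, the adjusted p ranged from 0.008 to 0.99 in GFP-high cells and from 0.0024 to 0.46 in GFP-low cells, where leaving out any of GFP-high DMSO replicates 1, 2 or 3 gave a change of 0.03 and no call. Exons of IRF1-AS1 on the other strand cover 22.9% of the exon bases of IRF1, and the strand setting of the counting is not given in the sources used here.

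IRF7 (ENSG00000185507.21, chromosome 11, 612553 to 615983, minus strand) encodes the factor that amplifies transcription of the interferon alpha genes. Its level was 6.025, 6.509 and 7.732 CPM in GFP-high DMSO, 6.197, 7.924 and 6.458 in GFP-high FX1, 6.144, 5.202 and 5.334 in GFP-low DMSO, and 7.591, 8.242 and 7.529 in GFP-low FX1. FX1 and DMSO libraries were separate in the GFP-low gate and overlapped in the GFP-high gate. IRF7 rose by 0.49 ± 0.11 in GFP-low cells (edgeR adjusted p = 2.7e-05) and changed by 0.02 ± 0.11 in GFP-high cells (edgeR adjusted p = 0.91). IRF7 has the highest GC content of the 9 genes, 66.8% in its longest transcript. With the GC/length trend taken out its FX1 changes were -0.29 in GFP-high cells (edgeR adjusted p = 0.013) and -0.00 in GFP-low cells (edgeR adjusted p = 0.98), so the rise depends on that setting. The adjusted p over the 21 alternatives ranged from 0.013 to 0.93 and from 1.5e-05 to 0.99.

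IFIH1 (ENSG00000115267.9, chromosome 2, 162267074 to 162318684, minus strand) encodes MDA5, the cytosolic sensor of long double-stranded RNA, and has ISRE cores at both ends of the printed promoter stretch. Its level was 38.16, 39.9 and 38.06 CPM in GFP-high DMSO, 59.8, 53.35 and 57.65 in GFP-high FX1, 33.02, 30.7 and 33.34 in GFP-low DMSO, and 45.26, 48.81 and 45.36 in GFP-low FX1. All 4 groups were separate, with GFP-high FX1 highest and GFP-low DMSO lowest. IFIH1 rose with FX1 by 0.56 ± 0.042 in GFP-high cells (edgeR adjusted p = 1.4e-29) and by 0.52 ± 0.044 in GFP-low cells (edgeR adjusted p = 5.4e-25). The difference between these effects was -0.03 ± 0.061.

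IFIT2 (ENSG00000119922.11, chromosome 10, 89283694 to 89309271, plus strand) encodes an RNA-binding protein that limits translation of viral RNA. Its level was 1.696, 2.034 and 1.784 CPM in GFP-high DMSO, 5.464, 4.953 and 4.829 in GFP-high FX1, 1.581, 1.681 and 1.899 in GFP-low DMSO, and 4.262, 3.667 and 4.086 in GFP-low FX1, from 38 to 201 counts per library. Both DMSO groups shared a range, and both FX1 groups lay clear above it. IFIT2 rose by 1.45 ± 0.16 in GFP-high cells (edgeR adjusted p = 2.4e-16) and by 1.23 ± 0.17 in GFP-low cells (edgeR adjusted p = 9.8e-12).

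IFIT3 (ENSG00000119917.15, chromosome 10, 89327307 to 89377473, plus strand) encodes a partner that stabilises IFIT1 and lies next to IFIT2 in the IFIT cluster. Its level was 1.294, 1.659 and 1.572 CPM in GFP-high DMSO, 4.077, 4.338 and 4.029 in GFP-high FX1, 1.94, 1.396 and 2.061 in GFP-low DMSO, and 4.04, 4.07 and 3.214 in GFP-low FX1, from 29 to 182 counts per library. As in IFIT2, every FX1 library was above every DMSO library. IFIT3 rose by 1.44 ± 0.18 in GFP-high cells (edgeR adjusted p = 4.7e-14) and by 1.10 ± 0.17 in GFP-low cells (edgeR adjusted p = 1.4e-09). Exons of LIPA on the other strand overlap 65 bases of IFIT2 and 94 bases of IFIT3, or 1.5% and 1.86% of their exon bases. LIPA held 1243 to 2708 counts per library, and the strand setting is not given, so its part in these low counts was not tested. ENSG00000232110, on the same strand, covers 12.1% of the exon bases of IFIT2 and held 0 to 1 counts.

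OAS1 (ENSG00000089127.15, chromosome 12, 112905856 to 112933219, plus strand) encodes an oligoadenylate synthetase, whose product activates the ribonuclease RNase L. Its level was 0.9818, 0.6571 and 0.9771 CPM in GFP-high DMSO, 1.984, 2.425 and 2.518 in GFP-high FX1, 1.724, 2.062 and 1.859 in GFP-low DMSO, and 4.24, 4.979 and 5.142 in GFP-low FX1, from 21 to 191 counts per library. GFP-low FX1 was highest and GFP-high DMSO lowest, each separate from the rest, while the middle pair of groups overlapped. OAS1 rose with FX1 by 1.43 ± 0.22 in GFP-high cells (edgeR adjusted p = 1.1e-09) and by 1.32 ± 0.17 in GFP-low cells (edgeR adjusted p = 3.3e-13).

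ISG15 (ENSG00000187608.10, chromosome 1, 1001138 to 1014540, plus strand) encodes a ubiquitin-like protein that is attached to other proteins. Its level was 6.739, 6.415 and 5.863 CPM in GFP-high DMSO, 8.399, 8.71 and 6.843 in GFP-high FX1, 5.676, 8.976 and 7.476 in GFP-low DMSO, and 12.41, 11.74 and 9.87 in GFP-low FX1. The GFP-low FX1 libraries were above all others, and GFP-low DMSO spread over the range of both GFP-high groups. ISG15 rose by 0.33 ± 0.11 in GFP-high cells (edgeR adjusted p = 0.0054) and by 0.63 ± 0.099 in GFP-low cells (edgeR adjusted p = 1.3e-08). Its longest transcript has a GC content of 63.4%, and with the GC/length trend taken out the changes of ISG15 were 0.21 (edgeR adjusted p = 0.066) and 0.38 (edgeR adjusted p = 0.00032), the highest adjusted p over 21 alternatives in each gate, the lowest being 0.00036 and 1.3e-11.

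**Figure D3:**
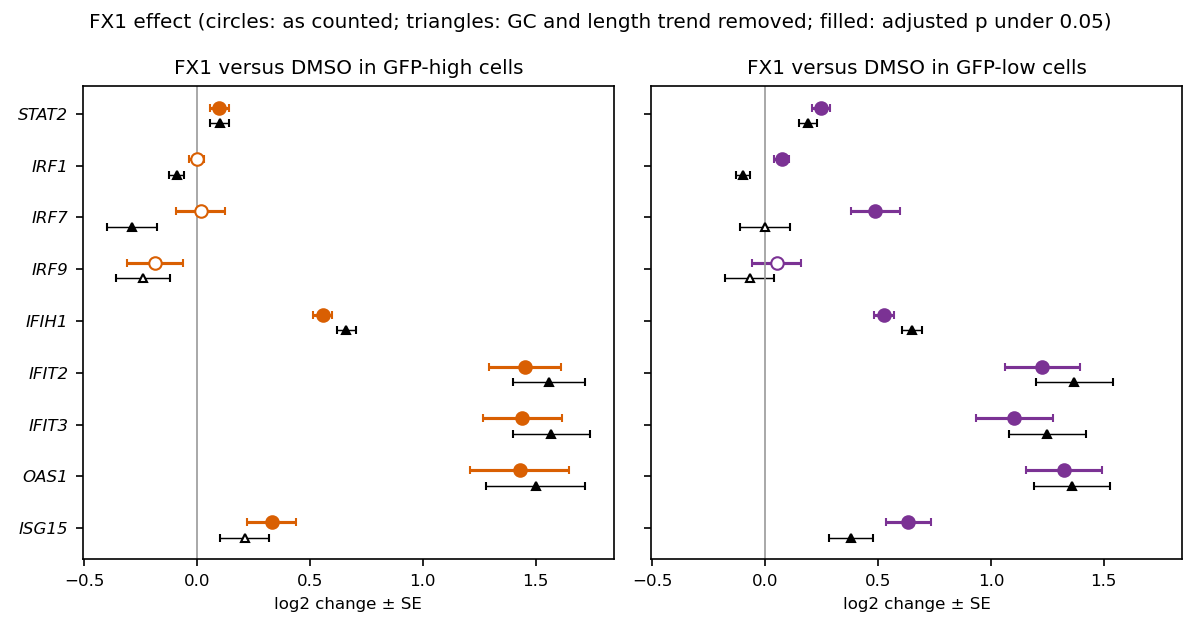
Log2 change with FX1 of the 9 genes in GFP-high and GFP-low cells, with bars of 1 SE, as circles, and with the GC/length trend taken out as triangles, filled where the adjusted p was under 0.05. The circles of IFIT2, IFIT3 and OAS1 lie between 1.10 and 1.45 in both gates, and those of IRF1 and IRF9 lie between -0.19 and 0.07.

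The gates were compared within each treatment to ask how GFP-low cells differ from GFP-high cells. Under DMSO, OAS1 was 2.21-fold higher in GFP-low cells (log2 1.15 ± 0.23, edgeR adjusted p = 6.4e-06), and IRF9 by 0.47 ± 0.12 (edgeR adjusted p = 0.00043), IRF1 by 0.21 ± 0.034 (edgeR adjusted p = 6.1e-09) and STAT2 by 0.19 ± 0.043 (edgeR adjusted p = 6.7e-05) were higher too. IFIH1 was lower, at -0.27 ± 0.047 (edgeR adjusted p = 2.5e-07), as was IRF7 at -0.28 ± 0.11 (edgeR adjusted p = 0.035), although the IRF7 ranges overlapped. That makes 4 genes higher and 2 lower of the 9, against 21.7% and 24.4% of all tested genes, 46.1% together. ISG15 at 0.23 ± 0.11 (edgeR adjusted p = 0.094), IFIT3 at 0.22 ± 0.21 (edgeR adjusted p = 0.4) and IFIT2 at -0.11 ± 0.20 (edgeR adjusted p = 0.67) did not pass. Over 21 alternatives the ISG15 change ranged from -0.006 to 0.390, with adjusted p from 0.0027 to 0.98. ISG15 stayed uncalled in 11 of the 12 fits that left out 1 library. The IRF7 call was lost without GFP-high DMSO replicate 3 (-0.18), GFP-low DMSO replicate 2 (-0.23) or GFP-low DMSO replicate 3 (-0.26). With the GC/length trend taken out, IRF7 was at -0.58 (edgeR adjusted p = 4.5e-06, with a range of 4.5e-06 to 0.27 over 21 alternatives) and IFIH1 at -0.15. The IRF9 call was lost without GFP-low DMSO replicate 1 (0.31).

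Under FX1, 5 genes were again called, in the same direction as under DMSO. OAS1 was 2.06-fold higher in GFP-low cells (log2 1.04 ± 0.16, edgeR adjusted p = 9.6e-10), IRF9 differed by 0.70 ± 0.11 (edgeR adjusted p = 9.6e-09), STAT2 by 0.34 ± 0.039 (edgeR adjusted p = 4.1e-15) and IRF1 by 0.29 ± 0.031 (edgeR adjusted p = 1.9e-16). IFIH1 was again lower, at -0.30 ± 0.040 (edgeR adjusted p = 5e-12). ISG15 passed in this treatment, at 0.53 ± 0.095 (edgeR adjusted p = 6.2e-07), but was at 0.16 with the GC/length trend taken out (edgeR adjusted p = 0.15, with a range of 5.8e-09 to 0.17 over 21 alternatives). IFIT2 was lower at -0.34 ± 0.14 (edgeR adjusted p = 0.025), a call lost without GFP-high FX1 replicate 1 (-0.28) or GFP-low FX1 replicate 2 (-0.28), with no filter on low counts, or with the GC/length trend taken out (-0.19, edgeR adjusted p = 0.26); it held in 16 of 21 alternatives, with adjusted p from 0.0052 to 0.26. IRF7 at 0.19 ± 0.10 (edgeR adjusted p = 0.1) and IFIT3 at -0.11 ± 0.15 (edgeR adjusted p = 0.52) were not called. In the setting without the GC/length trend IRF7 was called lower in GFP-low cells, at -0.30 (edgeR adjusted p = 0.0099, with a range of 0.0099 to 0.38 over 21 alternatives). The differences of IFIH1 and IRF1 under FX1 were smaller there, at -0.16 and 0.14. In all, 5 genes were higher and 2 lower, against 30.2% and 26.7% of all tested genes, 56.9% together. The effector genes thus did not move as 1 block between gates: OAS1 was higher in GFP-low cells under both treatments, while IFIT2 and IFIT3 were not called higher under either.

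**Figure D4:**
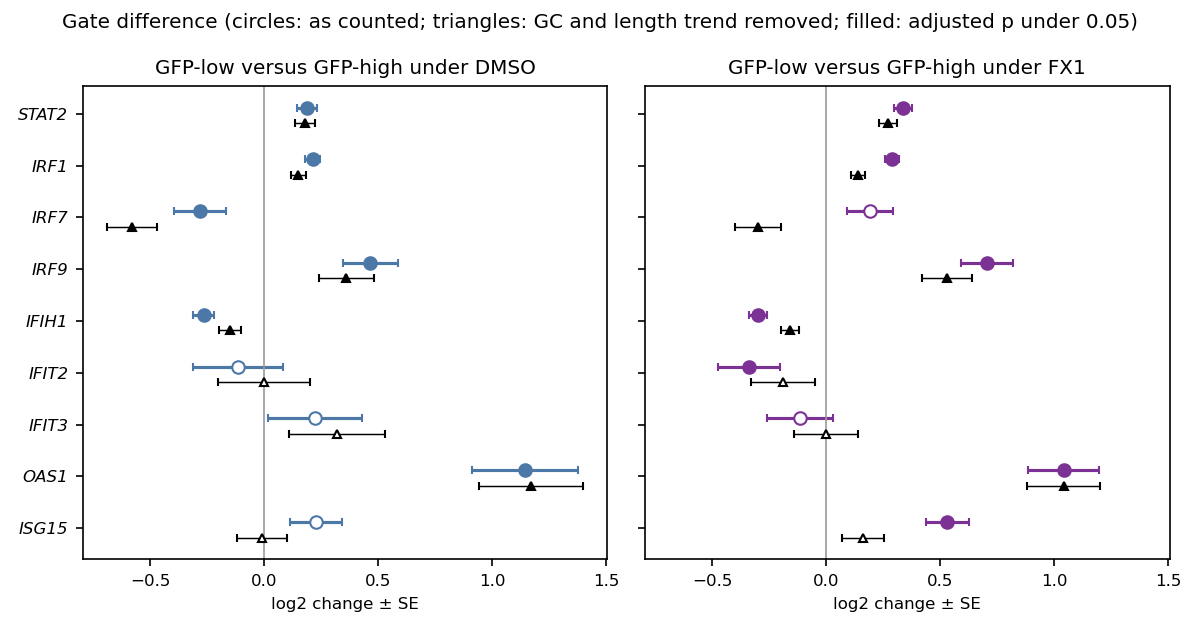
Log2 difference of GFP-low from GFP-high cells for the 9 genes under DMSO and under FX1, with bars of 1 SE, as circles, and with the GC/length trend taken out as triangles, filled where the adjusted p was under 0.05. The circles of OAS1 and IRF9 lie highest under both treatments and those of IFIH1 lie below zero under both.

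The difference of the FX1 effect, GFP-low minus GFP-high, was tested as an interaction. It passed for 2 genes, both with the larger effect in GFP-low cells, against 14.8% of all tested genes called in that direction and 16.5% in the other, 31.3% together. IRF7 differed by 0.47 ± 0.15 (edgeR adjusted p = 0.01) and STAT2 by 0.15 ± 0.058 (edgeR adjusted p = 0.036). With the GC/length trend taken out the difference was 0.29 for IRF7 (edgeR adjusted p = 0.17) and 0.09 for STAT2 (edgeR adjusted p = 0.26), so 0 of the 9 passed. Of all 17557 genes of that fit, 2156 were called higher and 2793 lower in the difference. Over 20 alternatives the adjusted p ranged from 0.0023 to 0.17 for IRF7 and from 0.01 to 0.45 for STAT2, whose call held in 5 of the 20. The IRF7 call was lost without GFP-high DMSO replicate 3 (0.32). ISG15 was not called, at 0.30 ± 0.15 (edgeR adjusted p = 0.11, with a range of 0.0091 to 0.52 over 20 alternatives). For the 3 effectors with the largest FX1 response, the difference was -0.23 ± 0.24 for IFIT2, -0.34 ± 0.25 for IFIT3 and -0.11 ± 0.28 for OAS1. The comparisons share libraries, each FX1 group serving in the FX1 and the gate comparisons, so their values are not independent of each other.

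Levels of the genes can be ranked only per length. Per kilobase of combined exons, the order in GFP-high DMSO was IFIH1 at 7.60 CPM, ISG15 at 7.31, STAT2 at 6.59, IRF1 at 5.62, IRF7 at 2.59, IRF9 at 1.40, IFIT2 at 0.425, IFIT3 at 0.298 and OAS1 at 0.067. The exons of OAS1 combine to 13021 bases while its longest transcript has 2416, so its place depends on which isoform is made. Per kilobase of the longest transcript the 3 lowest stood at 0.496 (IFIT2), 0.604 (IFIT3) and 0.361 CPM (OAS1), with IFIT2 and IFIT3 changing places. The top 4 reorder as well, to IRF1 at 13.4 CPM, STAT2 at 12.5, IFIH1 at 10.8 and ISG15 at 8.05, so the order within each of these sets depends on the length used.

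The other genes of the system were read from 7 lists with 120 entries, of which 86 passed the filter on low counts. With FX1, 43 rose and 20 fell in GFP-high cells (median log2 change 0.15), and 40 rose and 19 fell in GFP-low cells (median 0.13). Each list's counts stand against 33.8% of all tested genes called higher and 34.6% lower in GFP-high cells, and 33.7% and 34.3% in GFP-low cells. List counts with the GC/length trend taken out have another background, of 17557 genes. In that fit 6514 genes were called higher and 5565 lower in GFP-high cells (median 0.04). In GFP-low cells 6335 were called higher and 5239 lower (median 0.05). The lists too were chosen with earlier results of these data known, so these counts do not test for an excess. None of the 10 interferon ligand genes passed the filter. The highest count of a ligand gene in any library was 5, for IFNB1, and 6 ligand genes were at 0 in all libraries.

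Of the 9 receptor and kinase genes, 5 rose and 3 fell with FX1 in GFP-high cells (median 0.25), and 4 rose and 5 fell in GFP-low cells (median -0.07, and 0.21 with the GC/length trend taken out). TYK2, a kinase of the type I receptor, went from 93.9 to 132 CPM in GFP-high cells and from 112 to 174 in GFP-low cells, log2 changes of 0.49 ± 0.026 (edgeR adjusted p = 1.3e-45) and 0.64 ± 0.025 (edgeR adjusted p = 4e-68). IFNAR1, a chain of that receptor, rose by 0.40 ± 0.031 (edgeR adjusted p = 1.3e-27) and 0.17 ± 0.033 (edgeR adjusted p = 1.1e-06). Their partners went the other way. The chain IFNAR2 went from 37.3 to 31.5 CPM in GFP-high cells and from 38 to 31.3 in GFP-low cells. The kinase JAK1 went from 240 to 211 CPM and from 213 to 181 CPM. With the GC/length trend taken out, IFNAR2 was called lower at -0.21 and -0.27, and JAK1 at -0.16 and -0.23. IFNGR1, the ligand-binding chain of the interferon gamma receptor, rose by 0.25 ± 0.026 in GFP-high cells. In GFP-low cells it was called lower, at -0.07 ± 0.028, a difference between gates of -0.32 ± 0.038 (edgeR adjusted p = 8.7e-14). With the GC/length trend taken out, the IFNGR1 change was 0.41 in GFP-high cells and 0.21 in GFP-low cells (edgeR adjusted p = 1.2e-12), with a difference of -0.20. The IFNGR1 call in GFP-low cells thus turned from a fall to a rise with that setting. Taking the GC/length trend out also gave smaller TYK2 rises of 0.23 and 0.22, and an IFNAR1 rise of 0.27 in GFP-low cells.

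Of 7 tested STAT and IRF genes outside the 9, 4 rose and 2 fell in GFP-high cells (median 0.13) and 4 rose and 1 fell in GFP-low cells (median 0.08). Taking the GC/length trend out left 3 that rose and 1 that fell in GFP-high cells (median 0.03), and 1 rose and 2 fell in GFP-low cells (median -0.04). The lymphoid factor IRF4 fell the most, from 11.3 to 4.23 CPM and from 15.7 to 3.3 CPM. IRF8, a factor of B cells and myeloid cells, changed by 0.03 ± 0.022 and 0.02 ± 0.024 with FX1 (edgeR adjusted p = 0.26 and 0.56; called in GFP-low cells at -0.08 with the GC/length trend taken out) and was lower in GFP-low cells by log2 values of -0.40 ± 0.024 under DMSO and -0.41 ± 0.022 under FX1.

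Of 15 tested sensors and adaptors, 7 rose and 5 fell in GFP-high cells (median 0.29) and 7 rose and 4 fell in GFP-low cells (median 0.15). MAVS, the mitochondrial adaptor downstream of MDA5, rose from 91.6 to 132 CPM and from 93.5 to 152 CPM, by 0.53 ± 0.026 (edgeR adjusted p = 2.8e-52) and 0.70 ± 0.026 (edgeR adjusted p = 4.3e-74). UNC93B1, the chaperone of endosomal Toll-like receptors, rose by 0.69 ± 0.034 (edgeR adjusted p = 6.9e-52) and 0.82 ± 0.033 (edgeR adjusted p = 1.1e-65), and by 0.41 and 0.35 with the GC/length trend taken out. The related RNA sensor RIGI went the other way from IFIH1, with 2.43 to 1.58 CPM in GFP-high cells (-0.63 ± 0.20, edgeR adjusted p = 0.0031), and was not called in GFP-low cells at -0.23 ± 0.20 (edgeR adjusted p = 0.31). DHX58, which encodes the third receptor of that family, LGP2, was at -0.85 ± 0.33 (edgeR adjusted p = 0.015) and -0.52 ± 0.26 (edgeR adjusted p = 0.067), the latter called at -0.79 with the GC/length trend taken out (edgeR adjusted p = 0.0052).

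Of 50 further type I interferon-stimulated genes, 38 were tested and 23 were under 1 CPM in every group. With FX1, 20 rose and 2 fell in GFP-high cells (median 0.20), and 18 rose and 2 fell in GFP-low cells (median 0.27). The 14 that rose in both gates, with the GC/length trend in place and taken out, were IFIT5, IFI35, ISG20, UBE2L6, SAMD9, SAMD9L, BST2, ADAR, TRIM21, TRIM25, SP100, SP110, PML and NMI. The share of all genes that rose in both gates is not given here, so the count of 14 has no baseline. SAMD9L, an antiviral and growth-restricting gene, went from 1.81 to 7.13 CPM in GFP-high cells and from 3.43 to 13.6 in GFP-low cells, by 1.98 ± 0.14 (edgeR adjusted p = 6.4e-33) and 1.98 ± 0.11 (edgeR adjusted p = 1.9e-45). ADAR, the RNA-editing enzyme that marks self RNA against MDA5, went from 411 to 543 CPM and from 447 to 537 CPM, the latter a log2 change of 0.27 ± 0.014 and of 0.16 with the GC/length trend taken out. TRIM25, a ubiquitin ligase of the RNA sensor pathway, rose by 0.33 ± 0.026 (edgeR adjusted p = 8.4e-27) and 0.43 ± 0.025 (edgeR adjusted p = 3e-42).

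Close relatives of the effectors were not all tested or called higher. IFIT1, next to IFIT2 and IFIT3, was under 1 CPM in every group, as were MX1, RSAD2, OAS3 and OASL, all strongly interferon-induced. None of these passed the filter on low counts, so their FX1 changes were not tested. The mean of IFIT1 was 0.0283 CPM in GFP-high DMSO and 0.16 in GFP-high FX1. In GFP-low cells it was 0.0783 under DMSO and 0.145 under FX1. IFIT5 rose by 0.80 ± 0.24 (edgeR adjusted p = 0.0017) and 0.68 ± 0.25 (edgeR adjusted p = 0.01) from 1.03 CPM in GFP-high DMSO and 0.955 in GFP-low DMSO. OAS2 lay between 34 and 37.6 CPM in the 4 groups, with FX1 changes of 0.11 ± 0.047 (edgeR adjusted p = 0.027) and 0.06 ± 0.046 (edgeR adjusted p = 0.28). Among the enzymes that attach ISG15, the E2 gene UBE2L6 rose by 0.54 ± 0.040 (edgeR adjusted p = 9e-30) and 0.40 ± 0.039 (edgeR adjusted p = 1.1e-19). The E1 gene UBA7 fell by 0.74 ± 0.12 on the log2 scale in GFP-high cells (edgeR adjusted p = 1.8e-08) and was not called in GFP-low cells at -0.11 ± 0.11 (edgeR adjusted p = 0.38), where it was called lower with the GC/length trend taken out (-0.41, edgeR adjusted p = 0.00055). In GFP-low cells that setting gave 0.25 for UBE2L6.

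Risers of the type I list were found both with and without an ISRE core in these promoters. Of that list, 18 tested genes held the core in the 250 bases before a RefSeq start and 8 of them rose in each gate, while of 12 tested genes without it 10 rose in GFP-high cells and 8 in GFP-low cells. Promoters were found for 41 genes of the list, and tested genes without one are left out. Over all tested genes, 33.8% were called higher in GFP-high cells and 33.7% in GFP-low cells.

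Of 10 tested interferon gamma-linked genes, 5 rose and 4 fell in GFP-high cells (median 0.18), and 5 rose and 3 fell in GFP-low cells (median 0.25), or 3 and 3 (median 0.09) in GFP-low cells with the GC/length trend taken out. TAP1, a chain of the peptide transporter for MHC class I, rose by 0.72 ± 0.038 (edgeR adjusted p = 1.9e-49) and 0.79 ± 0.036 (edgeR adjusted p = 1.3e-58). WARS1, the tryptophanyl-tRNA synthetase, fell by 0.74 ± 0.019 (edgeR adjusted p = 1.2e-102) and 0.87 ± 0.020 (edgeR adjusted p = 5e-114), and the MHC class II activator CIITA fell by 0.21 ± 0.016 (edgeR adjusted p = 1.2e-28) and 0.14 ± 0.016 (edgeR adjusted p = 4.5e-15). CIITA was at -0.32 and -0.34, and TAP1 at 0.59 and 0.53, with the GC/length trend taken out. Of 7 tested negative regulators, 2 rose and 4 fell in each gate (medians -0.12 and -0.13), against 3 and 4 in GFP-high and 3 and 3 in GFP-low cells (both medians -0.05) with the GC/length trend taken out. The phosphatase gene PTPN6 (SHP-1) went from 138 to 77.4 CPM and from 108 to 47.2 CPM, and PIAS4, an inhibitor of STAT activity, rose from 15.1 to 26 and from 18.6 to 32.4 CPM. The PIAS4 rise in GFP-low cells was 0.80 ± 0.057 (edgeR adjusted p = 2.5e-32), and 0.39 with the GC/length trend taken out.

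**Figure D5:**
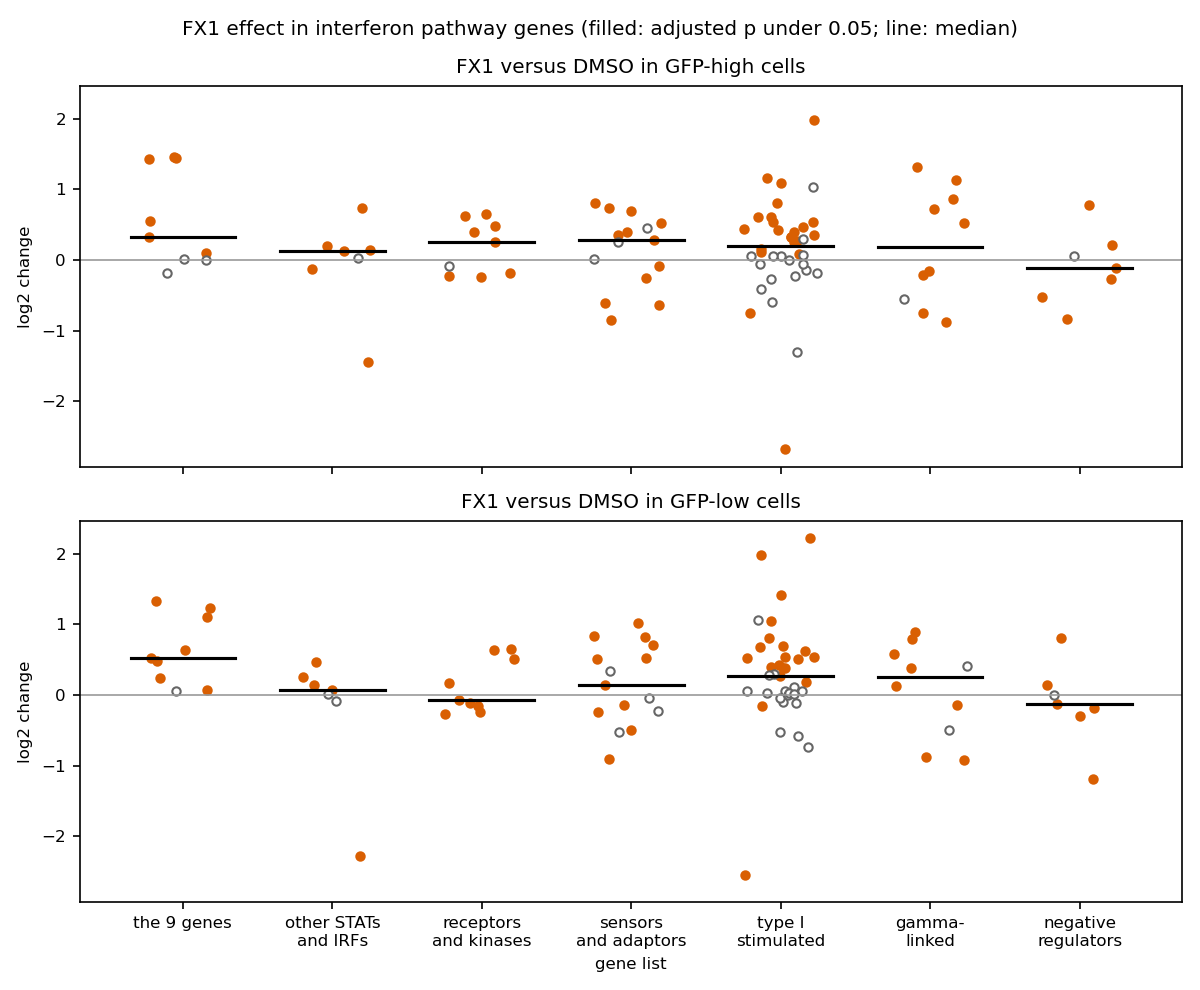
Log2 change with FX1 of each tested gene of the 9 and of the other lists, in GFP-high and GFP-low cells, as points filled where the adjusted p was under 0.05, with the median of each list as a line. The type I list has medians of 0.20 and 0.27, the negative regulators of -0.12 and -0.13, and no ligand gene passed the filter on low counts.

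Across the 12 libraries the 9 genes did not share 1 pattern. The Pearson correlation of log2 CPM was 0.95 between IFIT2 and IFIT3, 0.93 between IFIH1 and IFIT2, 0.87 between STAT2 and OAS1, 0.86 between STAT2 and IRF1, and -0.50 between IRF9 and IFIH1. These values describe 4 groups of 3 libraries and share the libraries' scaling. For likeness, the highest r among 9941 or 9942 candidate genes was picked for each gene, a choice that by itself favours high values. The tested genes most like each, at a mean log2 CPM of at least 2, were CD59 for IFIH1 (r = 0.99), ARF3 for IFIT2 (0.99), LY96 for IFIT3 (0.98), ANAPC11 for OAS1 (0.99), TMED1 for ISG15 (0.98), RAB11FIP4 for STAT2 (0.97), ABCB9 for IRF1 (0.97), NBPF8 for IRF9 (0.95) and ATP2B4 for IRF7 (0.87).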

How the data were processed

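RNA was sequenced from 12 Raji libraries, 3 per GFP gate and treatment. The authors deposited raw gene-level counts, per the file headers. Reads were aligned with STAR to hg38 and counted with featureCounts (Subread), with FastQC and R 4.2.1 also named, per the submitters' processing notes. Tool versions, annotation release and strand setting are not given in the sources used here, so overlapping genes cannot be separated with certainty. From 60710 lines, 3 that made up 1 broken record (ANK2) were dropped. Symbols were found for 60462 of 60707 genes (99.6%), and 0 count columns lacked a sample. Reads carried no stated molecular identifiers, so PCR copies may count more than once.

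The test was edgeR 4.0.16 (R 4.3.3) with filterByExpr, TMM, a robust quasi-likelihood fit with a term per group (8 residual degrees of freedom) and Benjamini-Hochberg adjustment over 17859 genes at 0.05. The fit was also run on counts simulated with the spread of these same libraries, with the outcome not given here. Such a run cannot show whether that spread is technical. The 9 genes and the lists were chosen with earlier results of these data known. All 9 are named. Up to 3 genes per list with the lowest p may be named, and RIGI, DHX58, IFIT1, IFIT5, OAS2, OAS3, OASL, MX1, RSAD2, UBA7, UBE2L6, IFNB1 and the 14 shared risers were named outside that rule, as relatives or short counts, after their values were seen. IFNAR2 and JAK1, the partners of IFNAR1 and TYK2, were also named outside that rule after their values were seen. Likeness names the gene with the highest r. Promoter letters came from RefSeq, and the first transcribed bases of each were matched to reference transcripts. A few items that the rules take are not reported here, and they still count in the tests and lists.

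Alternatives were DESeq2 1.42.0, its size factors in edgeR, no filter, a minimum of 50 counts in 3 libraries, a fit of the compared groups alone, the replicate block, a trend on GC content and length taken out (17557 genes, 98.3%), both together, scaling without mitochondrial genes or any gene over 1% of a library, and leaving out each library.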

Additional observations from a re-analysis of the deposited data

Results flagged for a closer look

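The effect of FX1 differed between gates by the interaction test for STAT2 and IRF7. STAT2 differed by 0.15 (log2, GFP-low minus GFP-high), with a FX1 change of 0.10 in GFP-high cells and 0.25 in GFP-low cells. IRF7 differed by 0.47, with changes of 0.02 and 0.49. The STAT2 call was kept in 5 of 20 alternatives and the IRF7 call in 17. With the GC/length trend taken out neither passed, at 0.09 for STAT2 (edgeR adjusted p = 0.26) and 0.29 for IRF7 (edgeR adjusted p = 0.17). Over all tested genes, 31.3% were called in this interaction in either direction.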

How the results depend on the processing

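The counts of genes called, over all genes, stayed within 1.5 times in each of the 104 alternative values. Of the changes of single genes among the 9, 846 of the alternative values kept direction and side of the threshold, 48 lost the call, 7 gained one and 35 changed sign. The rises of IFIH1, IFIT2, IFIT3 and OAS1 with FX1 held in all 21 alternatives in each gate. Where calls or signs changed, the cause was not tested.

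The count of the 9 genes higher in the difference of the FX1 effect was 1 with DESeq2, with its size factors in edgeR, with no filter and without mitochondrial and dominant genes, 0 with the GC/length trend taken out, with or without the block, and 0 to 3 without each library in turn. Genes lower with FX1 were 2 in GFP-high and 1 in GFP-low cells with the GC/length trend taken out, with or without the block. Genes lower in the GFP-low gate were 1 under DMSO with DESeq2 or with no filter, 1 under FX1 with no filter, and 1 to 2 under each treatment without each library in turn.

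Signs turned with the GC/length trend taken out for IFIT2 between gates under DMSO (0.0010), IFIT3 between gates under FX1 (0.0003), IRF7 with FX1 in GFP-low cells (-0.0032), and, without and with the block, IRF1 in the difference (-0.0083, -0.0078) and with FX1 in GFP-low cells (-0.1016, -0.1030), IRF7 with FX1 in GFP-high cells (-0.2885, -0.2836) and between gates under FX1 (-0.2977, -0.2936), IRF9 with FX1 in GFP-low cells (-0.0686, -0.0833) and ISG15 between gates under DMSO (-0.0059, -0.0053). With FX1 in GFP-high cells IRF1 was at 0.0008 with DESeq2, 0.0012 with its size factors and 0.0174 with no filter, and IRF7 at -0.0121 with at least 50 counts. Leaving out each library in turn gave -0.027 to 0.030 for IRF1 and -0.085 to 0.117 for IRF7 with FX1 in GFP-high cells, -0.038 to 0.210 for IRF9 with FX1 in GFP-low cells, and -0.251 to 0.050 for OAS1 and -0.104 to 0.0049 for IFIH1 in the difference.

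No pairing of libraries by the labels' replicate numbers was detected. Deviations from the group means correlated at -0.03 to 0.02 in the 18 same-numbered pairs and at -0.03 to 0.03 in the 36 others. The spread between replicates was 1.67 to 1.94 times the sampling variance, so a weak pairing could go unseen. With the replicate block the count called was 12184 for FX1 in GFP-high cells, 12101 in GFP-low cells, 8213 and 10111 between gates under DMSO and FX1, and 5536 for the difference. It changed no call of the 9 genes. Depth limits IFIT2, IFIT3 and OAS1, whose lowest libraries held 38, 29 and 21 counts.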
